A study of Mus musculus with 10 samples.

Results

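The clustered protocadherins are cadherin-family adhesion proteins encoded in the alpha, beta and gamma clusters in a row on mouse chromosome 18. Every variable exon of the clusters has a promoter of its own. In the alpha and gamma clusters it is spliced to constant exons shared by the whole cluster, while each beta gene is a single exon. Single neurons use a few alternate promoters, chosen largely at random and differently from cell to cell, which gives a cell a surface identity used in self-recognition of neurites. The C-type exons at the end of the alpha and gamma clusters are in contrast used by most neurons. Promoter choice is known to involve DNA methylation, the looping factor CTCF with cohesin, and enhancers at the end of the clusters.

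Members were the protein-coding genes of chromosome 18 named as alpha, beta or gamma clustered protocadherins in GENCODE M21 (mouse genome build GRCm38), which gave 57 of 21951 protein-coding gene records. They comprised 12 alpha alternates, 22 beta genes and 18 gamma alternates, together 52 alternates, and 5 C-type genes (Pcdhac1, Pcdhac2, Pcdhgc3, Pcdhgc4 and Pcdhgc5). All lay on the plus strand between 36930184 and 37841873. The annotation gives the name Pcdha11 to 2 records, which are told apart here by their identifiers, and Pcdhgb8 was not a member because it is not annotated as protein-coding. A member was counted as having a peak when the summit of an ATAC-seq peak lay within 1 kb of its variable exon start. The closest starts were 4131 bp apart and no peak was counted for more than 1 member.

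ATAC-seq, in which a transposase cuts and tags accessible DNA, had been run on 10 libraries of 50000 cells each, cultured from the subependymal zone (SEZ) of the brain of mice 10 weeks old. Wild-type (WT) cultures and cultures lacking p27 (p27KO), a cyclin-dependent kinase inhibitor encoded by Cdkn1b, were each taken in 2 conditions. PRO cells were neurospheres growing with EGF at 20 ng/ml and FGF at 10 ng/ml (3 WT and 2 p27KO libraries). DIFF cells had spent 2 days attached to Matrigel with FGF and then 24 h without mitogens in 2% serum (3 WT and 2 p27KO libraries), so PRO and DIFF also differed in substrate and serum. The sources used here do not say whether replicates were separate animals or separate cultures, and p-values measure only the spread between these libraries.

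The peak lists held 57534 to 91801 peaks, and read depth per library is not known, since the study's methods give only an average. The body of Cdkn1b carried a peak in all 6 WT libraries and in 0 of 4 from p27KO. This is as the titles and genotype labels say, although the free text of the p27KO libraries names WT cells. A summit lay within 1 kb of the Cdkn1b start in all WT and both p27KO PRO libraries, and in neither p27KO DIFF library. The promoters of 3 Y-linked genes had peaks in all 6 WT libraries and in 0 of 4 from p27KO, so genotype and this difference cannot be told apart. All 8 neural stem and progenitor markers (among them Sox2, Nes, Fabp7 and Egfr) had a promoter peak in all 10 libraries, and none of 5 microglial markers had one in any. Of 5 neuronal markers 3 or 4 had a peak in each library, with Rbfox3 at 0 and Dcx in 1 library. The ependymal marker Foxj1 and 1 of 4 endothelial markers, Kdr, also had a promoter peak in all 10 libraries. The other endothelial markers and 4 markers of myelinating oligodendrocytes had one in at most 1 library each. These are bulk cultures, where fewer cells with an open promoter and less accessibility per cell cannot be told apart.

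Peaks at the variable exon starts were patchy. Pcdhac1, Pcdhac2, Pcdhgc3, Pcdhgc4, Pcdhb11 and Pcdhb19 had a peak in all 10 libraries, 12 members had none in any, and 39 had one in some libraries and not in others. Of the 45 members with a peak in at least 1 library, 39 were thus intermittent, against 17.6% of the 14311 protein-coding genes with any promoter peak. The 6 members found in every library stand against 82.4% of those genes. When each list was held to the 57534 peaks of highest fold enrichment, the length of the shortest list, 36 of 41 members and 16.4% of 13581 genes were intermittent. These shares were not matched for peak strength, and most peaks at alternates were weaker than the median promoter peak, as given below. Whether other promoters with peaks as weak were as often intermittent was not tested.

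**Figure D1:**
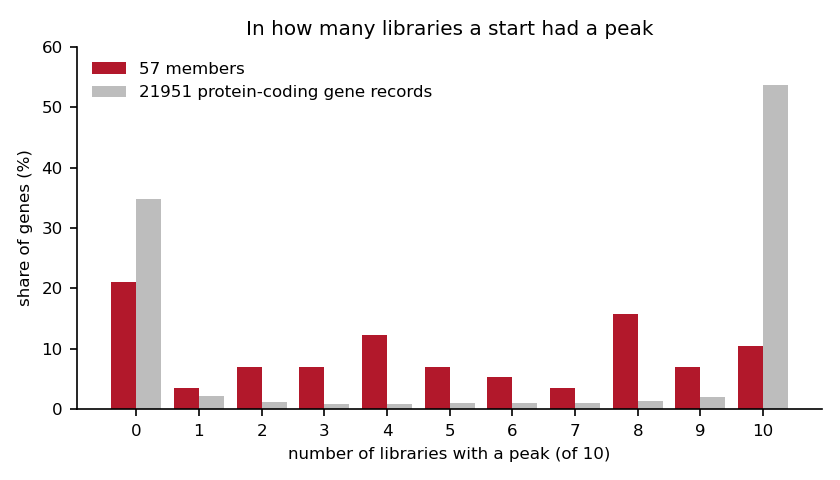
The number of libraries with a peak at the start (x axis, 0 to 10) is plotted against the share of genes in percent (y axis), for the 57 members in red and the 21951 protein-coding gene records in grey. All genes pile up at 0 (34.8%) and 10 libraries (53.7%), while members spread over the counts between, with 15.8% of them at 8 libraries.

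The clusters differed in how often their alternates were found. The median beta gene had a peak in 7 of 10 libraries, the median alpha alternate in 5 and the median gamma alternate in 3. At least 8 libraries held a peak for 10 of 22 beta genes, for 3 of 12 alpha alternates (Pcdha7, Pcdha8 and Pcdha12) and for 2 of 18 gamma alternates (Pcdhga1 and Pcdhga3). The members without a peak in any library were Pcdha1, Pcdha2 and Pcdha5, then Pcdhb18, Pcdhb20, Pcdhb21 and Pcdhb22 at the far end of the beta cluster, and Pcdhga4, Pcdhgb2, Pcdhga5, Pcdhga8 and Pcdhga9 in the gamma cluster. Pcdhga4, Pcdhgb2 and Pcdhga5 are direct neighbours. A missing peak says that none was called at the depth of that library, not that the promoter was closed.

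**Figure D2:**
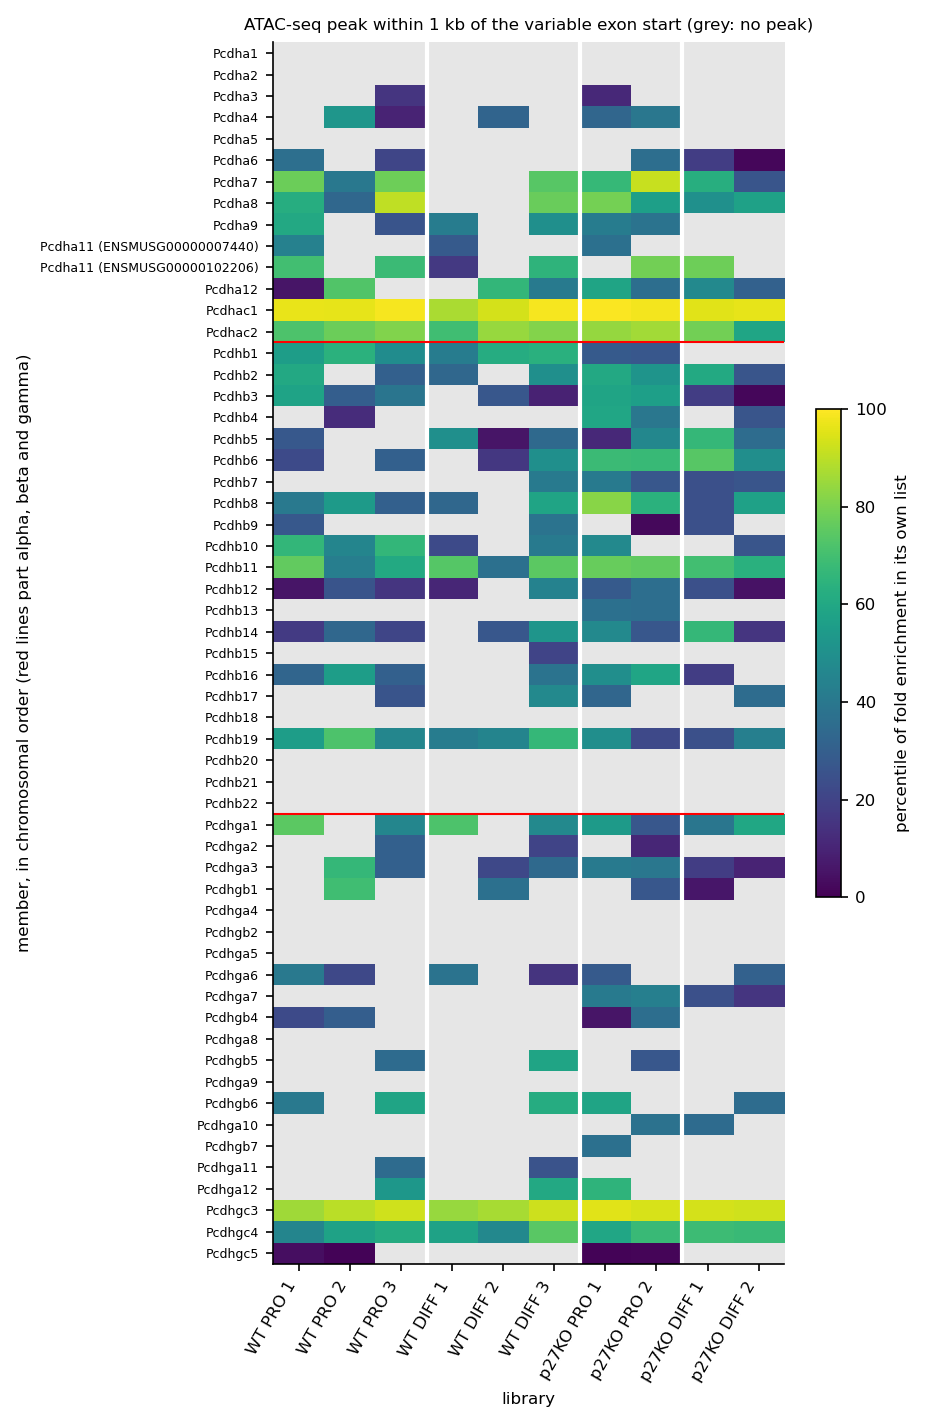
Each row is a member in chromosomal order and each column a library. Colour gives the percentile of the peak's fold enrichment within its own list, and grey marks a start without a peak. Pcdhac1 and Pcdhgc3 are bright in all 10 columns, while rows of alternates change between grey and dark to middle colours from column to column.

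As a group, C-type peaks ranked above those of alternates, although Pcdhac2, Pcdhgc4 and Pcdhgc5 did not rank above every alternate in every library. To put libraries on one scale, the fold enrichment of a peak over its local background was expressed as a percentile of all peaks in the same list. Such a percentile still depends on the length of the list. The 44 C-type peaks had a median percentile of 84.3, a median fold enrichment of 9.95 and a median width of 920 bp. The 226 peaks at alternates had a median percentile of 39.8, a median fold enrichment of 4.57 and a median width of 358 bp. In each of the 10 libraries the median percentile of C-type peaks was above that of alternate peaks. Alternate peaks rested on few fragments, with a median of 18 and a lowest value of 9 overlapping fragments at the summit against a background of 2.52 to 3.88. Genome-wide, the median promoter peak stood at a percentile of 81.7 to 86.6 in its list.

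Pcdhac1, at 37090013 (the exon start) and the first of the alpha C-types, had the strongest member peak. Its percentiles were 96.5, 96.4 and 98.4 in WT PRO, 87.2, 93.4 and 98.6 in WT DIFF, 99.5 and 98.3 in p27KO PRO, and 95.3 and 96.4 in p27KO DIFF. The p27KO PRO libraries lay above both p27KO DIFF libraries, and WT DIFF overlapped WT PRO. The summit sat within 100 bp upstream of the start in every library. Pcdhac2, at 37143503, gave percentiles of 72.2, 77.7 and 81.1 in WT PRO, 69.5, 84.5 and 81.6 in WT DIFF, 84.2 and 86.0 in p27KO PRO, and 78.7 and 58.8 in p27KO DIFF. Here the WT groups overlapped and the summit lay inside the exon, at a median of 418 bp after the start.

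Pcdhgc3, at 37806364, was close to Pcdhac1 in level. It had percentiles of 85.7, 89.7 and 93.0 in WT PRO, 84.4, 86.9 and 92.2 in WT DIFF, 95.6 and 93.8 in p27KO PRO, and 93.5 and 92.9 in p27KO DIFF. Its PRO and DIFF values overlapped in WT, and in p27KO they lay less than 3 percentile points apart. Pcdhgc4, at 37815079, had percentiles of 45.4, 57.7 and 61.5 in WT PRO, 57.6, 46.8 and 74.4 in WT DIFF, 59.2 and 67.8 in p27KO PRO, and 68.6 and 67.9 in p27KO DIFF. Pcdhgc4 was thus the weakest of the C-types found in every library, its WT groups overlapped, and both p27KO DIFF values lay just above the p27KO PRO values.

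Pcdhgc5, at 37819513, did not behave like the other C-types. It had a peak in WT PRO 1 and 2 and in both p27KO PRO libraries, at percentiles of 3.90, 1.06, 1.00 and 1.25, and in no DIFF library. These were among the weakest peaks in their lists, with fold enrichments of 2.52 to 3.01. Its local background pileup of 10.9 to 14.9 was high, while 29 to 39 fragments overlapped at the summit, more than at most alternates. Among the C-types found in all 10 libraries the order of levels was Pcdhac1, Pcdhgc3, Pcdhac2 and Pcdhgc4. Pcdhac1 and Pcdhgc3 overlapped in their range over libraries, as did Pcdhgc3 and Pcdhac2 and also Pcdhac2 and Pcdhgc4. Within every library, however, Pcdhac1 stood above Pcdhgc3 and Pcdhgc3 above Pcdhac2. Pcdhac2 stood above Pcdhgc4 in every library except p27KO DIFF 2 (58.8 against 67.9).

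Pcdhb11 had the highest median percentile among the alternates. Its percentiles were 76.1, 42.7 and 60.6 in WT PRO, 73.6, 36.8 and 74.9 in WT DIFF, 76.9 and 75.8 in p27KO PRO, and 69.8 and 63.6 in p27KO DIFF. Pcdhb19, the other alternate found in every library, had 55.7, 71.9 and 45.7 in WT PRO, 42.2, 45.1 and 66.5 in WT DIFF, 49.6 and 22.1 in p27KO PRO, and 24.4 and 43.1 in p27KO DIFF. For both genes the spread inside WT PRO, over 25 percentile points, was as wide as the differences between groups.

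Pcdha7 and its neighbour Pcdha8 were the strongest alpha alternates. For Pcdha7 the percentiles were 77.7, 39.8 and 78.0 in WT PRO, 73.9 in WT DIFF 3, 66.9 and 91.5 in p27KO PRO, and 62.7 and 26.3 in p27KO DIFF, with no peak in WT DIFF 1 and 2. Pcdha8 had 62.4, 33.4 and 90.3 in WT PRO, 77.2 in WT DIFF 3, 79.1 and 56.6 in p27KO PRO, and 50.3 and 57.2 in p27KO DIFF, and it too lacked a peak in WT DIFF 1 and 2. Both starts were therefore missing from the 2 shortest lists, and present in the DIFF library with the longest list.

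Other alternates lacked a peak in only 1 or 2 libraries. Pcdhb8 had percentiles of 40.5, 54.5 and 30.7 in WT PRO, 33.3 and 58.4 in WT DIFF 1 and 3, 82.2 and 64.0 in p27KO PRO, and 24.4 and 57.2 in p27KO DIFF. Pcdhb6 had 22.4 and 30.7 in WT PRO 1 and 3, 16.2 and 49.8 in WT DIFF 2 and 3, 68.3 and 67.3 in p27KO PRO, and 74.2 and 49.5 in p27KO DIFF. All 4 p27KO values of Pcdhb6 except 1 lay above every WT value, and that 1, at 49.5, lay just under WT DIFF 3.

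Pcdhga1, the first gamma exon, had percentiles of 74.7 and 45.7 in WT PRO 1 and 3, 71.9 and 47.3 in WT DIFF 1 and 3, 54.3 and 27.2 in p27KO PRO, and 39.4 and 59.4 in p27KO DIFF. Pcdhb2 had 60.3 and 30.7 in WT PRO 1 and 3, 33.3 and 49.8 in WT DIFF 1 and 3, 60.4 and 51.9 in p27KO PRO, and 60.6 and 26.3 in p27KO DIFF. The record of Pcdha11 at 37010712 (ENSMUSG00000102206) had 69.8 and 68.0 in WT PRO 1 and 3, 16.6 and 65.0 in WT DIFF 1 and 3, 78.7 in p27KO PRO 2 and 78.0 in p27KO DIFF 1. WT PRO and WT DIFF overlapped at Pcdhga1 and Pcdhb2 and, with libraries lacking a peak placed lowest, also at Pcdha11, and each of the 3 lacked a peak in WT PRO 2 and WT DIFF 2.

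The number of members with a peak was highest in the longest lists and lowest in the shortest. It was 29, 23 and 30 in WT PRO (27.3 ± 3.79, SD, n = 3), 17, 15 and 33 in WT DIFF (21.7 ± 9.87, SD, n = 3), 36 and 35 in p27KO PRO (35.5 ± 0.707, SD, n = 2), and 26 and 26 in p27KO DIFF (n = 2). The 3 longest lists, of 91801, 88738 and 83854 peaks, held 36, 33 and 35 members, and the 2 shortest, of 57534 and 61783 peaks, held 15 and 17. The lists between, of 67589 to 80179 peaks, held 23 to 30 members and did not follow length. Over all protein-coding genes the share with a promoter peak varied far less, from 57.2% to 61.4% per library, while among members it ran from 26.3% to 63.2%.

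In lists of equal length the groups came closer. The counts were then 21, 19 and 25 in WT PRO, 17, 15 and 26 in WT DIFF, 24 and 25 in p27KO PRO, and 25 and 20 in p27KO DIFF. The range of each group overlapped that of every other group.

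**Figure D3:**
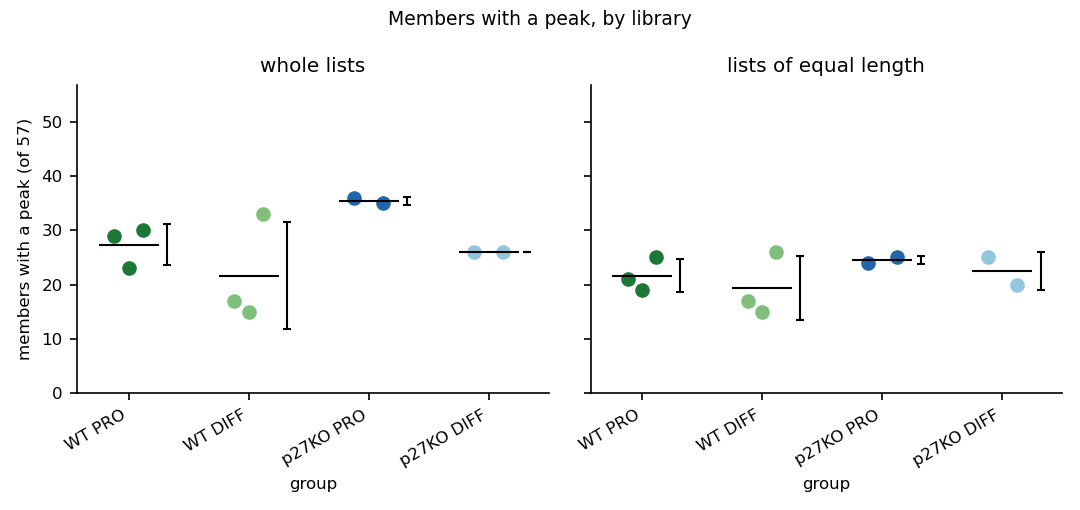
The number of members with a peak (y axis, of 57) is shown for each library by group, in whole lists on the left and in lists held to the shortest length on the right; horizontal lines are means and the bars beside them 1 SD. WT DIFF spans 15 to 33 in whole lists, and the gap between p27KO PRO (35 and 36) and the other groups is absent in lists of equal length.

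The first question was whether mitogen withdrawal changed presence at the members. A start was called closed at DIFF when every PRO and no DIFF library of a genotype had a peak, and opened in the reverse case. In WT no member was closed (background 0.657% of genes with a promoter peak) and none was opened (background 0.196%). In p27KO 6 members were closed (background 1.94%) and none was opened (background 0.349%). These backgrounds count genes with a peak in all 10 libraries, which can never be called. Of the 2520 intermittent genes, 278 were closed in p27KO, beside 6 of the 39 intermittent members. The closed members were Pcdha4, Pcdha9, Pcdhb1, Pcdhb13, Pcdhgb4 and Pcdhgc5. With 2 libraries per p27KO group such a pattern needs fewer libraries than in WT, and p27KO DIFF lists were shorter than p27KO PRO lists. At equal length 1 member, Pcdha9, was closed in p27KO, against 1.1% of genes.

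The peaks behind these calls were mostly weak. Pcdha4 had percentiles of 52.5 and 10.0 in WT PRO 2 and 3, 32.2 in WT DIFF 2, and 32.9 and 39.8 in p27KO PRO. Pcdha9 had 60.3 and 25.9 in WT PRO 1 and 3, 42.2 and 49.8 in WT DIFF 1 and 3, and 41.9 and 38.1 in p27KO PRO. Pcdha4 was thus present in 1 and Pcdha9 in 2 of the 3 WT DIFF libraries, and both were absent from p27KO DIFF. Pcdhgb4 had 22.4 and 29.8 in WT PRO 1 and 2 and 5.8 and 36.1 in p27KO PRO, and Pcdhb13 was found in the p27KO PRO libraries alone, at 37.0 and 36.1.

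Pcdhb1, the first beta gene (start at 37264938), had the largest genotype difference at DIFF among the members tested. Its percentiles were 55.7, 64.0 and 48.7 in WT PRO, 42.2, 62.1 and 63.5 in WT DIFF, and 28.3 and 27.2 in p27KO PRO, and no peak was called in p27KO DIFF. All 6 WT values lay above both p27KO PRO values. The summit was covered by 18 to 33 fragments in WT and by 15 in each p27KO PRO library. In lists of equal length Pcdhb1 kept a peak in every WT library (6 of 6) and had none in p27KO (0 of 4). On the rank scale described below, p27KO minus WT at DIFF was −1.22 ± 0.20 (SE) with an adjusted p of 0.0821 (limma), which did not pass the threshold of 0.05. Both p27KO DIFF libraries took the bottom score shared by promoters without a peak, −2.02 and −2.15. The size and error thus rest in part on tied scores, and the SE was the lowest of the 28 members tested (median 0.31). The adjusted p ranged from 0.0190, with peaks ranked by −log10 p, to 0.577 without p27KO DIFF 2, where the lone p27KO DIFF library is taken to vary like the other groups.

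Presence was then compared between genotypes within a condition. At PRO, Pcdhb7, Pcdhb13 and Pcdhga7 were found in both libraries of p27KO and in none of WT (background 0.273%), and no member showed the reverse (background 0.14%). At DIFF, Pcdha6 and Pcdhga7 were found in both libraries of p27KO and in none of WT (background 0.14%), and Pcdhb1 was the reverse (background 0.175%). The shares of genes in this paragraph count those with a peak in all 10 libraries, which can never be called. In lists of equal length, Pcdhb7 and Pcdhb13 lost this call at PRO, Pcdhga7 kept it and Pcdhb4 gained it (2 members, against 0.191% of genes), and Pcdhb1 was found in WT only at PRO too. With a window of 3 kb around the start Pcdhb7 lost the call as well. Pcdhga7 was thus found in 4 of 4 p27KO and 0 of 6 WT libraries, a pattern shared by 4 genes in all (0.028%).

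Pcdhga7 (start at 37714764) had percentiles of 40.7 and 43.1 in p27KO PRO and 24.4 and 15.6 in p27KO DIFF, with fold enrichments of 4.55, 4.90, 3.82 and 3.69. At these summits 18, 19, 14 and 12 fragments overlapped, beside the median of 18 at alternates. At equal length Pcdhga7 kept its peak in both p27KO PRO libraries and no longer in both p27KO DIFF libraries. Pcdhb7 had percentiles of 41.4 in WT DIFF 3, 40.7 and 27.2 in p27KO PRO, and 24.4 and 26.3 in p27KO DIFF. Pcdha6 had 36.7 and 20.7 in WT PRO 1 and 3, 36.1 in p27KO PRO 2, and 18.3 and 1.8 in p27KO DIFF, and so was present in WT at PRO.

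Levels were tested with limma on ranks. The fold enrichment of each promoter was ranked within its library and turned into a normal score, promoters without a peak were tied at the bottom, and differences below are differences of these scores, not folds of signal. Of the 57 members, 28 were found in at least 5 libraries and entered the test with all 13199 such genes. Only 4 libraries were p27KO, so a start found in p27KO alone, such as Pcdhga7, could not enter. Pcdhb13, Pcdhgb4 and Pcdhgc5 were not tested either. At an adjusted p of 0.05, 0 of the 28 changed in any of the 5 comparisons. For DIFF minus PRO, 1.2% of all genes were called in WT and 0.227% in p27KO, and 0% differed between genotypes in that change. For p27KO minus WT, 0.0379% were called at DIFF and 0.0379% at PRO.

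At an unadjusted p of 0.05 the number of members was 3 for DIFF minus PRO in WT (background 17.1% of all genes tested), 4 in p27KO (background 11.5%), 0 for the difference between them (background 3.95%), 2 for p27KO minus WT at DIFF (background 4.53%) and 6 at PRO (background 5.5%). The median change of the 28 members in the same order was 0.01, −0.04, −0.15, 0.09 and 0.20, beside 0.02, 0.02, −0.0059, −0.0017 and 0.0074 over all genes. Single members moved by up to −0.90 (Pcdha7) and 0.80 (Pcdhb5) in WT and up to −1.01 (Pcdha7) and 0.67 (Pcdhb5) in p27KO. Their standard errors were large, with a median of 0.28 in WT and 0.34 in p27KO. The WT changes of Pcdha7 and Pcdhb5 rest in part on tied scores. Pcdha7 had no peak in WT DIFF 1 and 2, and Pcdhb5 had none in WT PRO 2 and 3.

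The C-types found in every library did not pass either. For DIFF minus PRO, Pcdhac1 changed by −0.52 ± 0.28 (SE) in WT and by −0.99 ± 0.34 in p27KO, with adjusted p of 0.375 and 0.299 (limma). Pcdhgc3 gave −0.18 ± 0.18 in WT and −0.23 ± 0.22 in p27KO. Pcdhgc4 gave 0.25 ± 0.19 and 0.23 ± 0.23, and Pcdhac2 gave 0.07 ± 0.22 and −0.63 ± 0.27. Of these values the unadjusted p was under 0.05 for Pcdhac1 and Pcdhac2 in p27KO alone, and a difference of Pcdhac2 between genotypes was not shown (interaction −0.70 ± 0.35, adjusted p of 0.999 in limma).

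The DNA between and after the variable exons was then examined, from 50 kb before the first member to 50 kb after the last (36880184 to 37891873). Peaks of all libraries merged into 88 regions, of which 51 lay at a member start, 12 at another exon, 21 in an intron and 4 between genes. A peak in at least 2 libraries was found for 73 regions, and 21 of these were found in all 10 libraries (28.8%, against 38.2% genome-wide). Of the 21, 6 lay at the starts named above and the other 15 outside them.

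**Figure D4:**
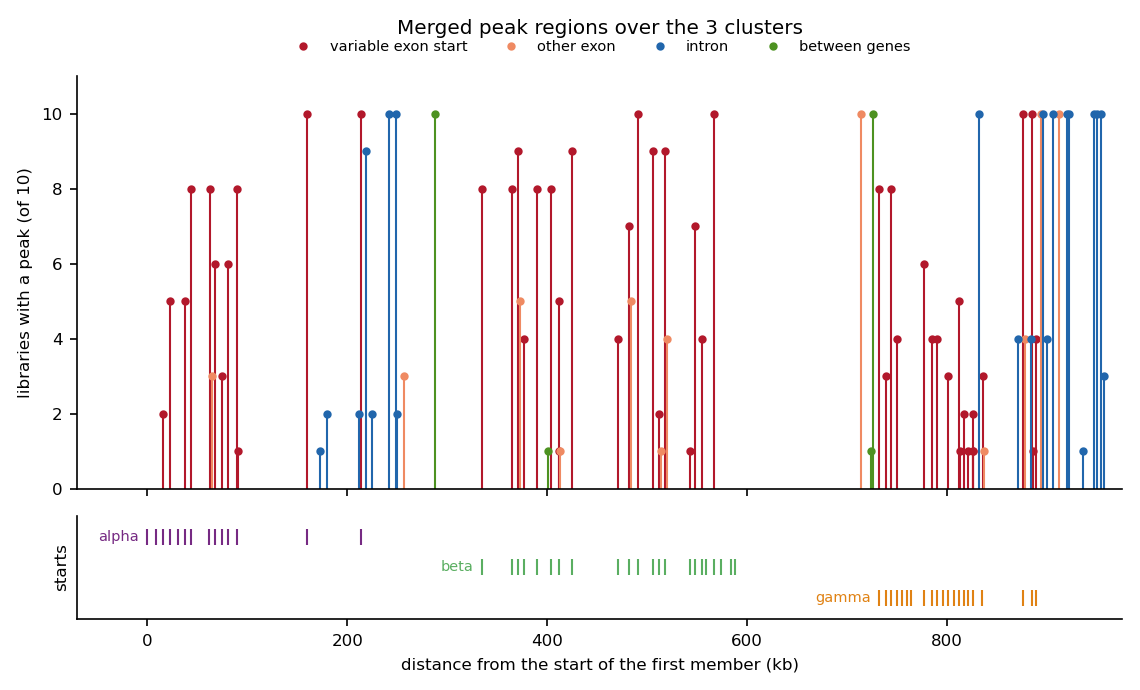
Merged peak regions are placed by distance from the start of the first member (x axis, kb), with the number of libraries that had a peak (y axis, of 10) and the colour for where the region lies; the lower panel marks the 57 variable exon starts. The alternate starts of all clusters carry stems of unequal height, while the C-type ends of alpha and gamma and the stretch after gamma hold most of the stems that reach 10 libraries.

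The constant peaks gathered where the clusters end. In the alpha cluster, regions at 37172217 to 37172852 and 37177907 to 37179330 lay in the intron before the last alpha constant exon, over exons of the non-coding records Gm38097 and Gm10544 on the other strand. The region with the second highest median percentile outside the member starts lay between the alpha and beta clusters, at 37217187 to 37218490, 46635 bp before the start of Pcdhb1. It had percentiles of 91.4, 91.1 and 88.6 in WT PRO, 94.3, 98.3 and 97.0 in WT DIFF, 96.2 and 89.1 in p27KO PRO, and 95.0 and 93.9 in p27KO DIFF. All WT DIFF values lay above all WT PRO values, by 0.62 ± 0.21 (SE) on the rank scale, with an adjusted p of 0.0585 (limma).

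Between beta and gamma, the promoter of Taf7, a subunit of the general transcription factor TFIID and no protocadherin, had percentiles of 98.6 to 99.8 in all 10 libraries (region 37643736 to 37644815). A region at 37655318 to 37656047, 6123 bp before the start of Pcdhga1, was also found in all 10, at 28.2 to 89.3. Inside the gamma cluster, the region over Pcdhgb8 (37761278 to 37762415) had a peak in all 10 libraries at 30.1 to 89.2, more often than any gamma alternate among the members. The rest lay at the first gamma constant exon (37823895 to 37825217), in the introns between the gamma constant exons (37825291 to 37826787 and 37835316 to 37836659), across the last gamma exon, and in introns of the next gene, Diaph1, an actin-nucleating formin transcribed toward the cluster.

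In Diaph1, the region at 37849360 to 37850209 had percentiles of 79.7, 82.5 and 84.4 in WT PRO, 81.8, 67.2 and 82.5 in WT DIFF, 91.0 and 83.2 in p27KO PRO, and 77.5 and 76.2 in p27KO DIFF. The region at 37879761 to 37880591 had 76.0, 77.9 and 76.1 in WT PRO, 64.6, 76.6 and 72.1 in WT DIFF, 78.8 and 85.0 in p27KO PRO, and 77.3 and 80.3 in p27KO DIFF. WT groups overlapped at both, and at the first both p27KO DIFF values lay below the p27KO PRO values.

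Of the regions, 46 were found in at least 5 libraries and were tested with all 70627 such regions of the genome. A region found in p27KO alone could not enter this test either. For DIFF minus PRO in WT 5 passed (background 19.2%), of which 2 were lower (background 10.1%) and 3 higher (background 9.15%). In p27KO 0 of 46 passed (background 12.3%), with 4 at an unadjusted p of 0.05 (background 25.7%). For the difference between the genotypes in this change 0 passed (background 0%), with 0 at an unadjusted p of 0.05 (background 3.91%). For p27KO minus WT 0 passed at DIFF (background 0.0156%) and at PRO (background 0.034%), with 2 (background 4.91%) and 7 (background 5.53%) at an unadjusted p of 0.05.

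The region across the last gamma exon, shared by all gamma transcripts, and the DNA just after it (37841374 to 37843235) fell in WT. Its percentiles were 75.0, 76.6 and 76.4 in WT PRO and 43.8, 34.6 and 51.0 in WT DIFF, a change of −0.72 ± 0.18 (SE) with an adjusted p of 0.0161 (limma). In p27KO it had 80.7 and 82.5 at PRO and 52.2 and 70.1 at DIFF, a change of −0.44 ± 0.22 with an adjusted p of 0.237. All DIFF values lay below all PRO values in both genotypes, and the interaction was 0.28 ± 0.28 (adjusted p of 1.00, limma). This change was called in WT whichever library was left out.

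The intron region before the last alpha constant exon (37172217 to 37172852) fell as well. Its percentiles were 96.7, 94.6 and 98.7 in WT PRO and 82.7, 75.2 and 90.3 in WT DIFF, a change of −0.84 ± 0.23 (SE) with an adjusted p of 0.0268 (limma). In p27KO it had 98.8 and 94.4 at PRO and 86.4 and 82.3 at DIFF, a change of −0.81 ± 0.28 with an adjusted p of 0.0902. The groups did not overlap in either genotype. The WT call was lost without WT PRO 1, WT PRO 3, WT DIFF 1 or WT DIFF 2, with adjusted p of 0.0567 to 0.0971.

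In introns of Diaph1, 2 regions rose in WT. At 37877190 to 37877937 the percentiles were 59.2, 51.1 and 61.5 in WT PRO and 71.0, 70.8 and 75.2 in WT DIFF, a change of 0.55 ± 0.17 (SE) with an adjusted p of 0.0424 (limma). At 37883519 to 37884150 they were 38.3, 49.0 and 43.9 in WT PRO and 60.3, 63.7 and 64.0 in WT DIFF, a change of 0.64 ± 0.19 with an adjusted p of 0.0346. In p27KO the first had 66.3 and 59.3 at PRO and 68.8 and 73.6 at DIFF, and the second, with overlapping groups, 64.8 and 53.3 and then 63.8 and 58.7. The first call was lost without any single library except WT DIFF 3, with adjusted p of up to 0.140, and the second without any of 5 WT libraries, WT DIFF 3 again excepted, with adjusted p of up to 0.113.

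The fifth region called higher at DIFF in WT was the start of Pcdhb7, where no WT PRO and 1 WT DIFF library had a peak (0.74 ± 0.20, SE, adjusted p of 0.0237 in limma). Absent regions were tied at −1.15 and −1.07 in WT DIFF 1 and 2 and at −1.59 to −1.68 in WT PRO. The mean tied score alone was 0.33 higher in WT DIFF than in WT PRO. Without WT DIFF 3 no WT library had a peak there, and the remaining value, 0.54 with an adjusted p of 0.0632, was the difference in tied scores alone. The call rested on that 1 peak and on the ties, and it was also lost without WT PRO 1 or 2 (0.0650 and 0.0671).

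**Figure D5:**
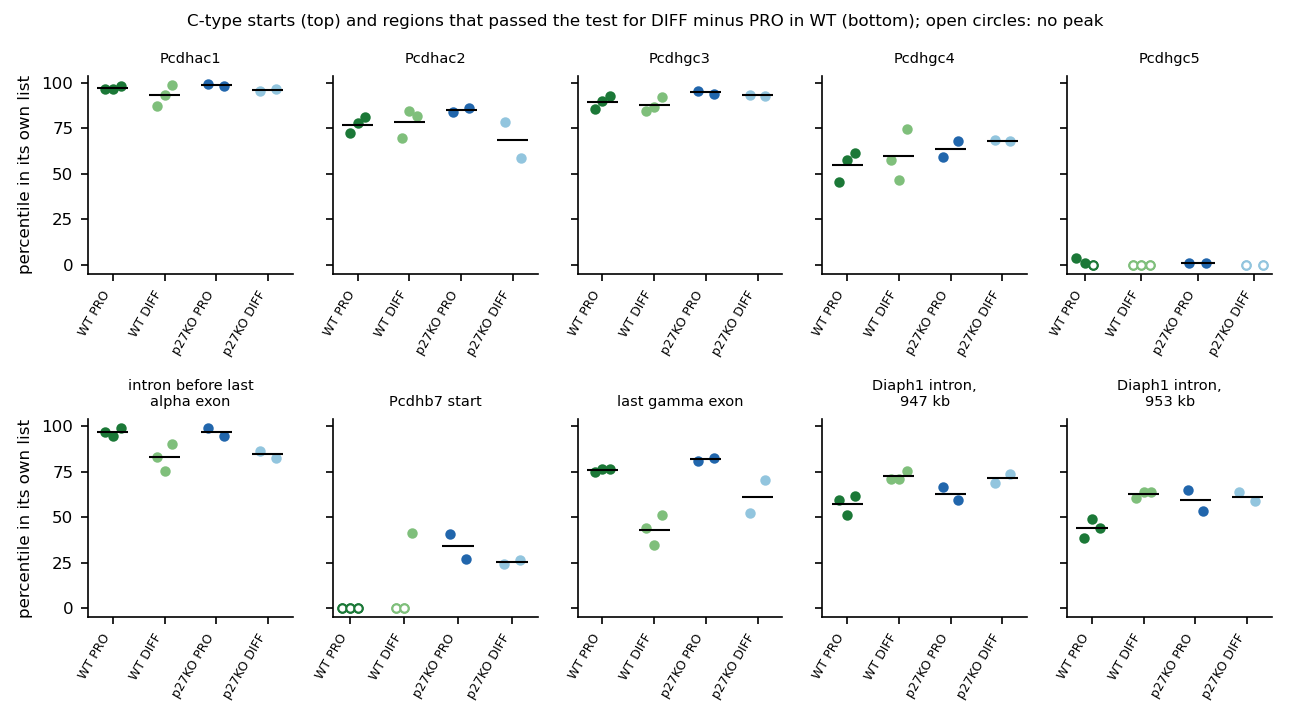
Percentiles of fold enrichment within a list (y axis) are shown for each library by group, for the 5 C-type starts (top) and the 5 regions called for DIFF minus PRO in WT (bottom); lines are group means where every library had a peak, and open circles at 0 mark libraries without one. The last gamma exon falls from 75.0 to 76.6 in WT PRO to 34.6 to 51.0 in WT DIFF, while WT PRO and WT DIFF overlap at the 4 C-type starts found in all libraries.

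By presence, 8 of the 73 regions were closed at DIFF in p27KO, near the background of 10.9%, and none in WT (background 4.32%). Of the 8, 6 were the member starts already named. No region was opened in WT (background 1.86%) or in p27KO (background 3.32%). Between genotypes, 3 regions were called in p27KO only at PRO (background 2.29%) and 3 at DIFF (background 0.707%), and 0 in WT only at PRO (background 0.498%) and 1 at DIFF, the start of Pcdhb1 (background 0.47%).

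Sequence features of the starts were read from GRCm38 as scalars, over the 300 bp from 250 bp before to 50 bp after each start. Clustered protocadherin promoters are known for a conserved sequence element with the core CGCT. On either strand CGCT was found in 55 of 57 members (96.5%), all but Pcdhb22 and Pcdhga12, and in 67.1% of 21931 protein-coding starts with sequence. So short a word is common at starts, and a match does not show that a member carries the element. The longer GGCGCT, which contains CGCT, was found in 18 of 22 beta genes (81.8%), 1 of 12 alpha alternates, 3 of 18 gamma alternates and 3 of 5 C-types, and in 18.5% of all starts. CGCT was also present at 11 of the 12 members without a peak.

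The C-type windows were richer in G and C, with a median GC content of 54.7%, near the 55.0% of all starts, while the alternates had 39.5%. The alternates never found had a median of 36.5% and those found in at least 5 libraries one of 39.7%. Members are paralogs, so reads can be hard to place. The share of 32-base words within 1 kb of the start that occur once in the genome had a median of 100% in C-types, 88.6% in alpha alternates, 99.6% in beta genes and 97.6% in gamma alternates. It was 98.7% at the 12 alternates never found and 89.8% at those found in at least 5 libraries. Of the 12, 9 were beta genes or gamma alternates, and the part of uniqueness in missing peaks was not tested. Pcdha7, the strongest alpha alternate, had the lowest share of all within 1 kb, at 73.7%, and a share of 95.6% within 250 bp of the start. Within 250 bp the lowest share was that of Pcdha5, which had no peak in any library, at 69.8%.

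Related genes were steadier than the alternates. Of 12 non-clustered protocadherins, each a gene with its own promoter outside the clusters, 10 had a peak in all 10 libraries, Pcdh7 in 9 and Pcdh12 in 0. Of 17 regulators of the clusters (CTCF, cohesin and its loaders and releasers, DNA methyltransferases and repressors) 15 had a promoter peak in all 10 libraries and 2, Dnmt1 and Stag1, had none within 1 kb of the start of the gene record. Of 4 intracellular partners Fyn, Ret and Ptk2 were found in all 10 and Ptk2b in none. None of the 29 tested genes of these lists passed in any comparison (limma). At an unadjusted p of 0.05 there were 5 for DIFF minus PRO in WT (17.1% of all genes), 1 in p27KO (11.5%) and 0 for the difference (3.95%), and 0 (4.53%) and 3 (5.5%) for p27KO minus WT at DIFF and PRO. Ctcf changed at DIFF by −0.16 ± 0.19 (SE) in WT and 0.22 ± 0.24 in p27KO, and Smchd1, a repressor of clustered protocadherin promoters, by −0.10 ± 0.21 and 0.07 ± 0.25, with adjusted p of 0.715, 0.769, 0.837 and 0.944 (limma).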

How the data were processed

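ATAC-seq peak lists of 10 libraries were used. Per the study's methods, the authors used Cutadapt and Trimmomatic to clean reads, Bowtie2 for mapping (GRCm38), Picard to mark duplicates and MACS2 to call narrow peaks in each library at a false discovery rate of 0.05, without a model; versions, read shift and extension are not given in the sources used here. The deposited lists hold peak positions, a display score, the fold enrichment (a ratio of summit pileup to local background), and −log10 p-values and −log10 q-values. Pileups were solved from fold enrichment and p-value for peaks with −log10 p under 60; in a sample of 2000 peaks per library 100% gave a whole number within 0.001.

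Peaks were assigned by summit to starts in GENCODE M21 (the authors used another release of the build). Regions were merged with an overlap of at least 1 bp. The test on normal scores of ranks was that of limma (version 3.58.1, under R 4.3.3), fitting each group's mean. Benjamini-Hochberg adjustment was made over all features with a peak in at least 5 libraries. The test was run on simulated scores without ties, so that check did not cover features tied for lack of a peak. The study's read-based test needs alignments, which were not used here. Groups came from sample titles. The members and gene lists were chosen with earlier results of these data known. One gene of the list of regulators is not reported here. Values per library were given for the C-types, the 10 other members with the highest median percentile, members closed or opened or past the threshold, the 5 strongest constant regions and regions past the threshold. The depth of each library is unknown, so no counting interval was given.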

Additional observations from a re-analysis of the deposited data

How the results depend on the processing

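Over 53 results, 266 of 304 alternatives and 388 of 440 fits without 1 library were classed as unchanged. For single tests this meant the same direction and side of the threshold. For counts it meant a value near the main count, and for median levels a shift under 1 SD. The totals include counts of 0 that stayed 0, and counts redone without a library that they did not use. Of members called by limma, the count became 1 for DIFF minus PRO in WT (Pcdhb7) and 1 for p27KO minus WT at DIFF (Pcdhb1) with peaks ranked by −log10 p. Regions called in WT (5) numbered 3 with only the compared groups in the fit, 2 with a filter of 2 libraries, and 2 to 6 without 1 library, the lowest without WT PRO 1, 2 or 3 or WT DIFF 1. Regions called in p27KO (0) numbered 2 by −log10 p and 1 with a filter of 2 libraries, and for p27KO minus WT at DIFF that filter gave 1. The cause was not tested.

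Whether replicate numbers pair libraries was not settled. Deviations of same-numbered PRO and DIFF libraries correlated at −0.13 to 0.02 in WT and −0.10 in p27KO for promoters, and at 0.03 to 0.06 and −0.14 for regions. Between WT libraries of different number the values were −0.08 to 0.10 for promoters and −0.05 to −0.0048 for regions. With so few libraries per group, correlations of this size cannot decide it. With the number as a replicate block, 0 members and 4 regions were called in WT, 0 and 0 in p27KO, and 0 in the interaction. A crossed block in p27KO, added after the data were seen, gave 7 regions in WT and 1 in p27KO. Numbers 1 and 2 also recur in both genotypes, where same-numbered libraries correlated at −0.08 to 0.05; with the number as a replicate block across genotypes, added after the data were seen, 0 members and 0 regions were called for p27KO minus WT at DIFF and at PRO.

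Lists of equal length left 1 member and 1 region closed in p27KO (6 and 8 in whole lists), 0 members and 0 regions of p27KO only at DIFF (2 and 3), and 1 member and 1 region of WT only at PRO (0 and 0); members of p27KO only at DIFF numbered 1 with a 500 bp window and 1 at −log10 q of at least 3. Without 1 library, members closed ranged over 0 to 3 in WT and 6 to 10 in p27KO, opened 0 to 1 and 0 to 1, WT only at PRO 0 to 1, p27KO only at DIFF 2 to 5 and WT only at DIFF 1 to 2; the highest came without WT DIFF 3, p27KO PRO 2, WT PRO 1, p27KO PRO 2, p27KO PRO 1, WT DIFF 3 and WT DIFF 2. For regions these were 0 to 4, 8 to 13, 0 to 2, 0 to 3, 0 to 1, 3 to 6 and 1 to 3, and p27KO only at PRO 3 to 5.

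The median percentile of C-types found in all libraries was 83.2, 83.2, 89.9 and 83.3 (WT PRO, WT DIFF, then p27KO in the same order), and that of alternates 39.7, 39.1, 42.4 and 29.2. By −log10 p the C-types stood at 89.1 in WT PRO and 92.7 in p27KO PRO and the alternates at 26.5 in p27KO DIFF. Among promoter peaks alone the C-types stood at 56.0, 52.9, 68.9 and 54.3 and the alternates at 9.79, 9.60, 9.48 and 6.13. Pcdhac2 reversed in WT, to −0.029 by −log10 p, −0.040 without WT PRO 1 and −0.11 without WT DIFF 2, over a range of −0.11 to 0.18 without 1 library.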
